A study of Mus musculus with 4 samples.

Results

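The 9 genes described here encode calmodulin, the calcium sensor of the cell (Calm2 and Calm3), the 4 subunits of calcium/calmodulin-dependent protein kinase II, or CaMKII (Camk2a, Camk2b, Camk2d and Camk2g), 2 catalytic subunits of the phosphatase calcineurin (Ppp3ca and Ppp3cb) and the calcineurin regulator Rcan1. They were taken by gene name from a table of 48432 gene rows, in which each of the 9 had 1 row. The RNA came from cardiomyocytes that had been isolated from mouse hearts by Langendorff perfusion, and polyadenylated RNA was sequenced. The control group, labelled MHC, had 2 libraries of the MHC genotype, and the Rbfox2 OE group had 2 libraries from mice of the genotype labelled RbFox2, which overexpress the splicing regulator RBFOX2. Both groups had the C57BL x FVB background and both received doxycycline in the diet for 3 days. The labels give neither the ages of the mice nor the promoter that drives the transgene, and do not spell out MHC. The series is about the non-muscle isoform of RBFOX2 and conduction defects in myotonic dystrophy.

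In a beating heart cell each calcium transient loads calmodulin, which then switches on CaMKII and calcineurin. CaMKII phosphorylates the proteins that release, remove and admit calcium, as well as sodium and potassium channels, and sustained CaMKII activity is known for its part in arrhythmia and heart failure. Calcineurin dephosphorylates NFAT transcription factors, which then enter the nucleus, and this pathway is a classical driver of cardiac hypertrophy. Rcan1 protein binds and restrains calcineurin, and 1 of its transcripts is itself induced by calcineurin and NFAT, so that its level is widely used as a readout of the pathway.

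The authors' table gave 1 pooled value per gene and group in FPKM (fragments scaled by transcript length and by library size). How library size was set is not given. Scaling by length lets the levels of genes be set side by side, as far as fragments were assigned to the right gene. Each value has a lower and an upper bound, given here in parentheses after it (for a sum of genes, the summed bounds); what interval these bounds stand for is not stated. No library had a value of its own, so there was no replicate spread, no test and no p-value, and differences are given as the authors' values with their bounds. The depth in fragments is unknown. Rbfox2 itself stood at 14.7 FPKM (10.4 to 19.0) in control cells against 293 FPKM (214 to 373) in Rbfox2 OE, in the direction of the labels. Of the cardiomyocyte markers, Myl2 and Tnnt2 stood at 24688 and 10609 FPKM in the control, while Myh6 and Mb are listed at 0 in both groups with the status HIDATA, given to loci with too many fragments. All 9 genes had the status OK in both groups and stood at 1 FPKM or more in both.

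Rcan1 was higher in Rbfox2 OE and the CaMKII genes Camk2a and Camk2b were lower, and these 3 genes had bounds that did not overlap between the groups, although those of Camk2a overlapped when set against the median cardiomyocyte marker. For the other 6 the bounds overlapped, with 5 of them lower and Calm2 higher in Rbfox2 OE, and 3 of the 5 (Camk2d, Ppp3ca and Calm3) took the other sign when set against the median cardiomyocyte marker. The difference of each gene was expressed as the log2 ratio of Rbfox2 OE over the control after adding 1 FPKM to both, a pseudocount that shrinks the ratio of weakly expressed genes, and a ratio of at least 1 in size was counted as 2-fold. By that count 2 of the 9 genes lay at or beyond 2-fold on the lower side and 1 on the higher side, against 10.02% and 6.97% of the 11697 genes whose mean over the groups reached 1 FPKM. Separate bounds gave the same counts, 2 lower and 1 higher, against 9.33% and 6.67% of all genes compared. Among 9 genes a single gene is 11.1% of the list, so these counts are not read as standing above the background. The median log2 ratio of the 9 was -0.69, beside -0.06 for all genes compared. Of all genes at least 2-fold apart, 59.0% were lower as deposited, 46.5% after rescaling without mitochondrial and top genes, and 9.96% when set against the median cardiomyocyte marker.

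**Figure D1:**
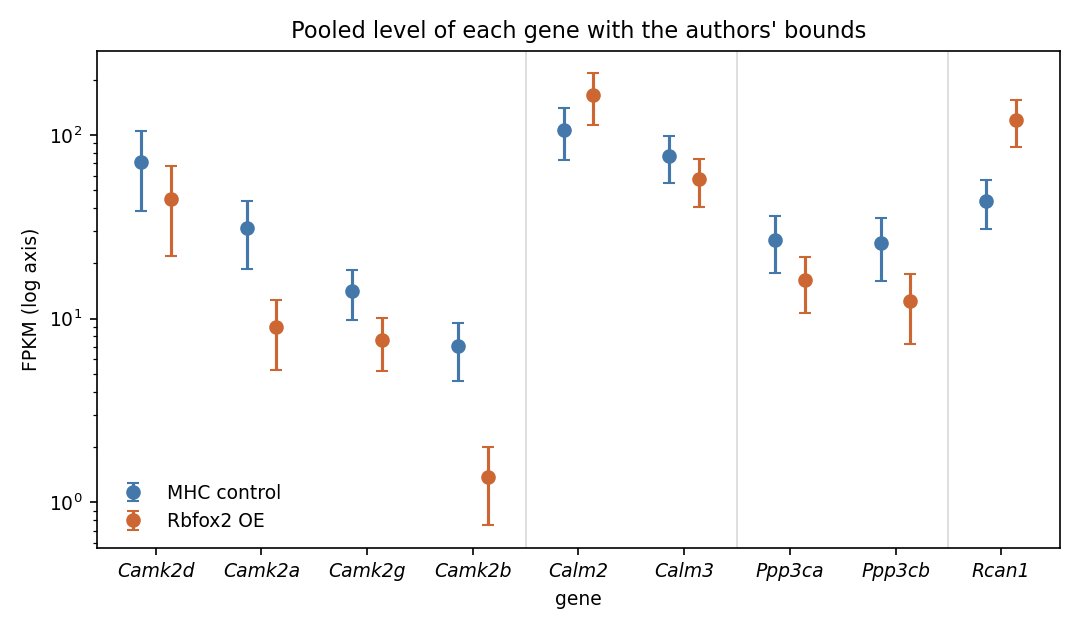
Pooled FPKM (log axis) of the 9 genes by group (MHC control and Rbfox2 OE); points are the authors' value for each group of 2 libraries and bars run from the authors' lower to upper bound. The bars of the groups are apart for Camk2a, Camk2b and Rcan1 and overlap for the other 6 genes.

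Calmodulin is made from several genes, and the members Calm2 and Calm3 are shown first by their coding sequences, because they encode the same protein and their levels can be added. The first 90 coding bases of each are given 5′ to 3′ from GENCODE M21 transcripts on GRCm38, with capitals where the 2 genes differ. The stretches come from 3 exons of each gene, between chr17:87435879-87446795 for Calm2 and chr7:16917673-16923843 for Calm3, both on the minus strand.
Calm2: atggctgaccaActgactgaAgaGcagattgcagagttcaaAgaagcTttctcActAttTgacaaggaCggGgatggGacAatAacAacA
Calm3: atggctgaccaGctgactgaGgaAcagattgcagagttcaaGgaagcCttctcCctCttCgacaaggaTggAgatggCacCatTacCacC
All 15 capital positions in this stretch lie at the third base of a codon. Over the whole coding length of 450 bases, Calm2 and Calm3 differed at 78 positions, 74 of them at the third base of a codon, and were 82.7% identical, while 0 of the 149 encoded residues differed. Of the 50-base stretches of annotated transcripts, 9.72% for Calm2 and 2.52% for Calm3 also occurred in other genes, led by Gm7308 and Gm5881. How many fragments were assigned between these genes was not measured.

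Calm2 (ENSMUSG00000036438, GRCm38 chr17:87433412-87446935, minus strand, protein-coding) was the most abundant of the 9 genes in both groups. It stood at 107 FPKM (72.9 to 141) in control cells against 165 FPKM (114 to 217) in Rbfox2 OE, a log2 ratio of 0.62 with overlapping bounds. Calm3 (ENSMUSG00000019370, chr7:16915379-16924114, minus strand, protein-coding) had the opposite sign, at 76.7 FPKM (54.5 to 99.0) in control cells against 57.4 FPKM (40.5 to 74.3) in Rbfox2 OE, a log2 ratio of -0.41. The ratio of the Calm2 level to the Calm3 level was 1.39 in the control and 2.88 in Rbfox2 OE. Summed, Calm2 and Calm3 came to 184 FPKM (127 to 240.1) in control cells against 222 FPKM (154 to 291) in Rbfox2 OE, or 121% of the control, with summed bounds that overlapped widely. The log2 ratio of this sum, 0.27, became 1.01 when set against the median cardiomyocyte marker. Calm2 made up 58.2% of that sum in the control, where the bounds allow 42.4% to 72.1%, and 74.2% in Rbfox2 OE, where they allow 60.4% to 84.3%, so the shares were not distinguishable by the bounds.

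CaMKII works as a large complex of subunits from 4 genes, of which Camk2d encodes the delta subunit, the main form in heart muscle. In the control, Camk2d (ENSMUSG00000053819, chr3:126596302-126846326, plus strand, protein-coding) had the highest level of the 4 at 71.5 FPKM (38.4 to 105), and in Rbfox2 OE it stood at 44.9 FPKM (21.9 to 68.0). The bounds overlapped, and the nearest and farthest pairs of bounds put the log2 ratio of -0.66 anywhere between -2.21 and 0.81. Camk2d had the widest bounds of the 9 genes relative to its value, with the upper bound 46.3% above it in the control and 51.3% above it in Rbfox2 OE. The gene is known for alternative exons that send its product to the nucleus or the cytosol, and a value for the whole gene does not separate these forms.

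Camk2a (ENSMUSG00000024617, chr18:60925618-60988152, plus strand, protein-coding) encodes the alpha subunit, best known from neurons, and in muscle also a shorter anchoring product without kinase activity. It stood at 31.2 FPKM (18.6 to 43.8) in control cells against 8.95 FPKM (5.23 to 12.7) in Rbfox2 OE. The level in the control was 3.49 times that in Rbfox2 OE, a log2 ratio of -1.69 with bounds that were apart, and 2.23% of all genes compared had a lower ratio. Camk2a stood at -1.01 with overlapping bounds when set against the median cardiomyocyte marker. The neuronal and glial markers were near 0: none of the 7 reached 1 FPKM in either group, and Map2 stood at 0.846 FPKM in control cells against 0.798 FPKM in Rbfox2 OE.

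Camk2b (ENSMUSG00000057897, chr11:5969644-6066362, minus strand, protein-coding), which encodes the beta subunit, was the lowest of the 9 genes in both groups. It stood at 7.06 FPKM (4.60 to 9.52) in control cells against 1.38 FPKM (0.751 to 2.003) in Rbfox2 OE. Its plain ratio of 5.13 was the largest of the 9 genes, while the log2 ratio with the pseudocount was -1.76, and 1.97% of all genes compared lay lower. Adding 5 FPKM instead of 1 gave Camk2b a log2 ratio of -0.92, below the 2-fold threshold in size.

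Camk2g (ENSMUSG00000021820, chr14:20734875-20794088, minus strand, protein-coding), which encodes the gamma subunit, stood at 14.2 FPKM (9.83 to 18.5) in control cells against 7.62 FPKM (5.22 to 10.03) in Rbfox2 OE. The upper bound of Rbfox2 OE lay just above the lower bound of the control, so the bounds overlapped by a small margin, and the log2 ratio was -0.81. Its level in the control was 1.86 times that in Rbfox2 OE.

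Together the 4 CaMKII genes summed to 124 FPKM (71.4 to 176) in control cells against 62.9 FPKM (33.1 to 92.7) in Rbfox2 OE, which is 50.7% of the control with overlapping bounds. The log2 ratio of the CaMKII sum, -0.97, became -0.24 when set against the median cardiomyocyte marker. Camk2d made up 57.7% of the sum in the control and 71.4% in Rbfox2 OE, and Camk2a made up 25.2% and 14.2%. For Camk2d the bounds allow a share of 34.8% to 76.0% in control cells against 47.0% to 85.9% in Rbfox2 OE, so the shares were not distinguishable by the bounds. Camk2g made up 11.4% and 12.1%, and Camk2b made up 5.70% and 2.19%.

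**Figure D2:**
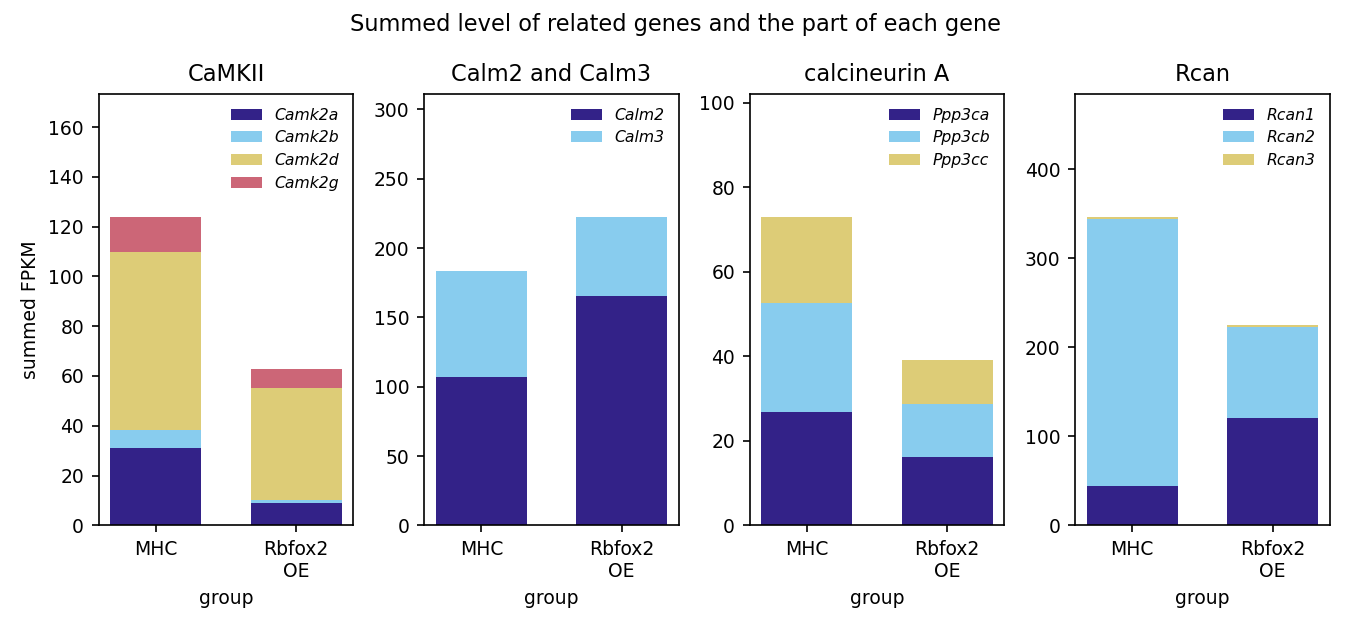
Summed FPKM of the CaMKII genes, Calm2 and Calm3, the calcineurin A genes and the Rcan genes by group (MHC control and Rbfox2 OE), with each gene's part stacked and each panel on its own axis from 0. The CaMKII sum is 124 FPKM in control cells against 62.9 FPKM in Rbfox2 OE, and the Rcan2 part of the Rcan sum is 86.6% in control cells against 45.3% in Rbfox2 OE.

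The catalytic subunits of calcineurin were both lower in Rbfox2 OE, with overlapping bounds, although Ppp3ca stood at 0.02 on the log2 scale when set against the median cardiomyocyte marker. Ppp3ca (ENSMUSG00000028161, chr3:136670124-136937727, plus strand, protein-coding), the alpha isoform, stood at 26.8 FPKM (17.6 to 36.0) in control cells against 16.3 FPKM (10.7 to 21.8) in Rbfox2 OE, a log2 ratio of -0.69. Ppp3cb (ENSMUSG00000021816, chr14:20499364-20546573, minus strand, protein-coding), the beta isoform, known as the one required for hypertrophy in mouse hearts, stood at 25.7 FPKM (16.1 to 35.4) in control cells against 12.5 FPKM (7.32 to 17.6) in Rbfox2 OE. The log2 ratio of Ppp3cb, -0.99, was the nearest to the 2-fold limit among the genes inside it, and with a pseudocount of 0.1 FPKM it was -1.04, beyond the limit.

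The third catalytic isoform, Ppp3cc, was lower with separate bounds, at 20.4 FPKM (14.2 to 26.7) in control cells against 10.5 FPKM (7.15 to 13.9) in Rbfox2 OE, a log2 ratio of -0.90. Summed, the 3 catalytic genes came to 73.0 FPKM in control cells against 39.2 FPKM in Rbfox2 OE, which is 53.7% of the control, with summed bounds of 47.9 to 98.1 and 25.2 to 53.2 that overlapped. The log2 ratio of that sum, -0.88, became -0.15 when set against the median cardiomyocyte marker. The makeup of the sum was similar in both groups, with Ppp3ca at 36.7% and 41.5%, Ppp3cb at 35.3% and 31.7% and Ppp3cc at 28.0% and 26.8%. The regulatory subunit Ppp3r1, chosen after its values were seen because it completes the enzyme, stood at 26.1 and 18.3 FPKM with overlapping bounds.

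Rcan1 (ENSMUSG00000022951, chr16:92391953-92470867, minus strand, protein-coding) stood at 44.0 FPKM (30.9 to 57.0) in control cells against 121 FPKM (86.1 to 156) in Rbfox2 OE. The level in Rbfox2 OE was 2.75 times that in the control, and the lower bound of Rbfox2 OE lay above the upper bound of the control. Its log2 ratio was 1.44, and the bounds put it between 0.59 and 2.30. Of all genes compared, 3.14% had a higher ratio. By level, Rcan1 ranked 1613 among the 11697 genes in the control and 559 in Rbfox2 OE. Under the 5 alternative settings its log2 ratio lay between 1.36 and 2.18.

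Its relative Rcan2, which also binds calcineurin, had the opposite sign. Rcan2 stood at 300.3 FPKM (198 to 403) in control cells against 102 FPKM (64.4 to 139) in Rbfox2 OE, a log2 ratio of -1.55 with separate bounds. Set against the median cardiomyocyte marker, Rcan2 was no longer 2-fold lower and its bounds overlapped. The Rcan2 level was 6.83 times the Rcan1 level in the control and 0.841 times the Rcan1 level in Rbfox2 OE. Rcan1 therefore made up 12.7% of the summed Rcan1, Rcan2 and Rcan3 FPKM in the control and 53.8% in Rbfox2 OE, and the ranges that the bounds allow, 7.07% to 22.3% and 37.7% to 70.5%, did not overlap. The sum itself was 347 FPKM (230 to 464) in control cells against 225 FPKM (151 to 298) in Rbfox2 OE, with overlapping bounds, and its log2 ratio of -0.62 became 0.12 when set against the median cardiomyocyte marker. Rcan3, named to complete the family after its values were seen, was low in both groups, at 2.37 and 1.997 FPKM.

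Rcan1 has alternative starts, and the gene-level value does not say which of them was used. The RefSeq promoter table (GRCm38.p6) gives a start at each end of a distance of 66091 bases, and the 250 bases before each are shown 5′ to 3′ because the downstream start is the one known to respond to calcineurin. Capitals mark GGAAA or its reverse complement TTTCC, the core of NFAT sites, TGACTCA or TGAGTCA, the AP-1 site, and TGACGTCA, the cyclic AMP response element, which reads the same on both strands; the motifs were chosen with the sequences in view.
Rcan1 downstream start, chr16:92400079-92400328, minus strand: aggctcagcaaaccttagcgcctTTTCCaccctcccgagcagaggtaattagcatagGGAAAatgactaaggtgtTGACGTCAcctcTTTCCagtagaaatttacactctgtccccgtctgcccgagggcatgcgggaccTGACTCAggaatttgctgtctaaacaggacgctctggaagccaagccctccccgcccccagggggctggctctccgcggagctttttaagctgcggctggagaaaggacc
Rcan1 upstream start, chr16:92466170-92466419, minus strand: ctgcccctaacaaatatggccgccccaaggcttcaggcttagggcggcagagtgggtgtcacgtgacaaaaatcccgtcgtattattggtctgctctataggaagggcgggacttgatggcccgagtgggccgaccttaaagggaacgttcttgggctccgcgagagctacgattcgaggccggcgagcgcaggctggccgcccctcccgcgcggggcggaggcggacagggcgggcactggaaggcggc
The downstream window held 3 matches of the NFAT core, 1 AP-1 match and 1 cyclic AMP response element, none overlapping another, and the upstream window held 0 of each. Among 32851 promoter windows of 250 bases, 55.6% held the NFAT core on either strand and 6.39% held it at least 3 times, 4.46% held the AP-1 match and 1.55% the cyclic AMP response element. A match is a description of these letters and shows neither binding nor use of the start. In the same table Camk2b had 0 matches of the 3 motifs, Calm3 and Camk2d had 1 NFAT core each and Ppp3cb had 3. None of these 4 windows held an AP-1 or cyclic AMP match, and no window was available for Camk2a, Camk2g, Calm2 and Ppp3ca.

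**Figure D3:**
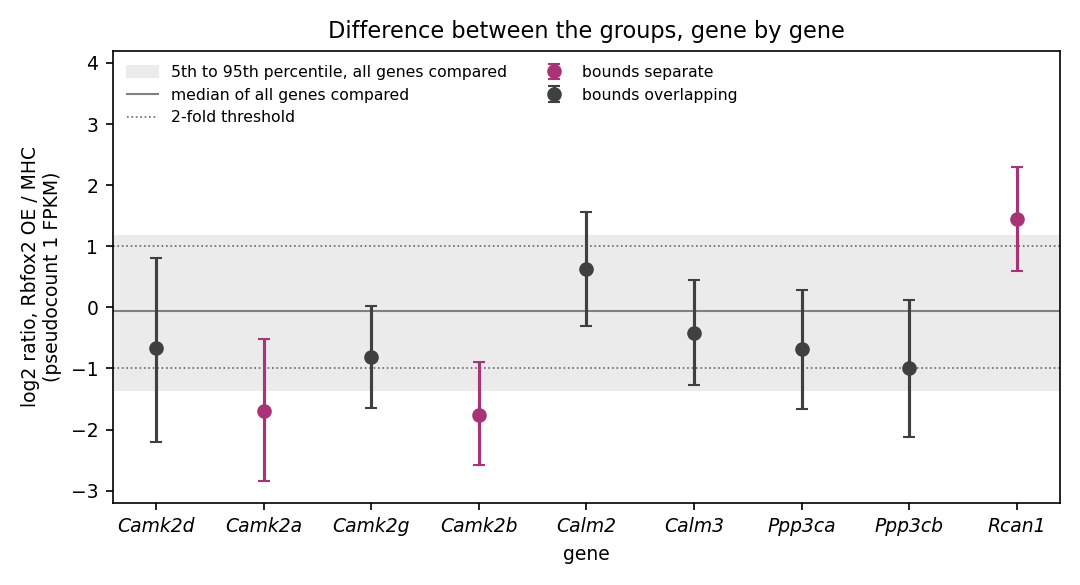
Log2 ratio of Rbfox2 OE over MHC (pseudocount 1 FPKM) for the 9 genes; bars run from the ratio of the nearest to that of the farthest pair of bounds, the grey band covers the 5th to 95th percentile of the 11697 genes compared, from -1.35 to 1.17, and dotted lines mark 2-fold. Camk2a at -1.69 and Camk2b at -1.76 lie below the band and Rcan1 at 1.44 lies above it.

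The RBFOX proteins bind the RNA letters UGCAUG, written TGCATG in the transcript sequences, and the 9 genes shared this word in their 3′ untranslated regions. In the annotated coding transcript with the longest such region, each of the 9 genes had at least 1 copy, from 1 in Camk2a and Calm3 to 5 in Camk2g, read on the transcript strand. Of 11067 protein-coding genes compared, 35.6% had a copy, in regions with a median length of 1174 bases. Among genes whose region was within 10% of the same length, a copy was held by 12.9% for the 615 bases of Calm2, 39.6% for the 1500 bases of Rcan1, 49.7% for Camk2g, 52.3% for Camk2b and 74.3% for the 3591 bases of Camk2d. Sites are printed for the genes with separate bounds, other than Camk2a, and for Calm2, which has the shortest region, with the word in capitals.
Camk2b, chr11:5971384-5971409, minus strand: ctccctcccaTGCATGggccccacgt
Camk2b, chr11:5969873-5969898, minus strand: acaattctttTGCATGaccctctaaa
Rcan1, chr16:92392936-92392961, minus strand: ctgacgttcaTGCATGtgtattactg
Rcan1, chr16:92392165-92392190, minus strand: cagttaacagTGCATGctttggggac
Calm2, chr17:87433903-87433928, minus strand: tcaaaaaataTGCATGtatagtaatt
Calm2, chr17:87433801-87433826, minus strand: agtaacatgtTGCATGtggcttactc
Camk2b, with a lower level in Rbfox2 OE, and Rcan1, with a higher one, each had 2 copies. All 9 genes had the word, so nothing about direction is read from its presence. A copy of the word is not a measured binding site, and splicing sites in introns were not searched.

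By level, the order of the 9 genes differed between the groups. In the control it ran Calm2, Calm3, Camk2d, Rcan1, Camk2a, Ppp3ca, Ppp3cb, Camk2g and Camk2b, and neighbours in this order had overlapping bounds in 7 of 8 pairs, all but Camk2g and Camk2b. In Rbfox2 OE it ran Calm2, Rcan1, Calm3, Camk2d, Ppp3ca, Ppp3cb, Camk2a, Camk2g and Camk2b. There 5 of 8 neighbouring pairs overlapped, and the bounds were apart between Rcan1 and Calm3, between Camk2d and Ppp3ca, and between Camk2g and Camk2b. Rcan1 thus stood 4th in the control and 2nd in Rbfox2 OE, and Camk2a 5th and 7th.

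The other genes of the pathway were taken from 6 lists. Their counts by separate bounds stand beside 9.33% lower and 6.67% higher among all genes compared. Their 2-fold counts stand beside 10.02% lower and 6.97% higher. Set against the median cardiomyocyte marker, 339 of the 11697 genes compared were 2-fold lower and 3065 were 2-fold higher. With lists of this size 1 gene moves a share by several points, and nothing is read as particular to a list. Among calmodulin-related genes, 8 of 15 had a mean of at least 1 FPKM, of which 2 were lower with separate bounds and 1 was higher, and the median log2 ratio was 0.12. By the 2-fold count 2 were lower and 2 higher, and 1 was lower and 4 higher when set against the median cardiomyocyte marker. Pcp4l1, a small relative of the calmodulin-binding protein PCP4 and the most abundant gene of this list, stood at 173 FPKM (124 to 222) in control cells against 64.2 FPKM (45.2 to 83.1) in Rbfox2 OE. The calmodulin-activated phosphodiesterases had opposite signs, with Pde1c at 12.5 FPKM in control cells against 1.76 FPKM in Rbfox2 OE and Pde1a at 1.45 and 6.04 FPKM, both with separate bounds.

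Of the calmodulin-dependent kinases and CaMKII inhibitors, 17 of 24 had a mean of at least 1 FPKM, and 4 were lower and 0 higher with separate bounds, with a median log2 ratio of -0.78. By the 2-fold count 6 kinase and inhibitor genes were lower and 0 higher, and 2 were lower and 2 higher when set against the median cardiomyocyte marker. Mylk4, a muscle kinase of the myosin light chain kinase family, stood at 29.9 FPKM (21.2 to 38.5) in control cells against 5.62 FPKM (3.35 to 7.88) in Rbfox2 OE. Eef2k, which phosphorylates the translation elongation factor eEF2, stood at 19.7 and 6.71 FPKM. Phka2, a regulatory subunit of phosphorylase kinase, stood at 5.53 and 1.19 FPKM, and Pnck, a CaMKI family kinase, at 3.74 and 1.21 FPKM. The most abundant gene of the list, the cardiac myosin light chain kinase Mylk3, had nearly the same level in both groups, 226 FPKM (128 to 324) and 219 FPKM (129 to 309).

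Among calcineurin subunits, regulators and anchors, 11 of 16 had a mean of at least 1 FPKM, of which 3 were lower and 0 higher with separate bounds, and the median log2 ratio was -0.17. By the 2-fold count 2 of these calcineurin genes were lower and 0 higher, and 0 were lower and 2 higher when set against the median cardiomyocyte marker. The 3 were Ppp3cc, Rcan2 and Akap6, an anchoring protein that holds calcineurin at the nuclear envelope of the myocyte, at 28.9 FPKM (20.7 to 37.1) in control cells against 10.7 FPKM (7.59 to 13.9) in Rbfox2 OE. Myoz2, a Z-disc protein that binds calcineurin and the most abundant of the list, stood at 1236 and 1396 FPKM with overlapping bounds.

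Downstream of both enzymes, 18 of 20 transcription factors and repressors had a mean of at least 1 FPKM, with 2 lower and 1 higher by separate bounds and a median log2 ratio of -0.17, counts near the shares among all genes. By the 2-fold count 3 of these factors were lower and 0 higher, and 0 were lower and 5 higher when set against the median cardiomyocyte marker. The NFAT genes with separate bounds had opposite signs, with Nfatc2 at 4.33 FPKM (2.67 to 5.99) in control cells against 1.29 FPKM (0.803 to 1.78) in Rbfox2 OE and Nfatc3 at 5.65 FPKM (3.89 to 7.41) and 10.7 FPKM (7.43 to 13.99), apart by a small margin. Crtc1, a coactivator of CREB released by calcineurin, stood at 3.26 and 1.27 FPKM. The most abundant, Mef2d, a factor freed when CaMKII phosphorylates class IIa histone deacetylases, stood at 78.8 and 51.9 FPKM with overlapping bounds.

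Of 10 genes that encode substrates of CaMKII, 7 were lower with separate bounds, and the 1 counted as higher, Atp2a2, has no control estimate and is listed at 0 there. Without Atp2a2 the median log2 ratio was -2.19 over 9 genes. The 2-fold count of lower substrate genes was 7 both as deposited and when set against the median cardiomyocyte marker. Pln, the phospholamban gene, stood at 2613 FPKM in control cells against 488 FPKM in Rbfox2 OE, and Ryr2, the calcium release channel, at 122 and 22.4 FPKM. The L-type channel genes Cacnb2 and Cacna1c had log2 ratios of -3.02 and -2.19, and the potassium channel genes Kcnd2 and Kcnd3 -1.73 and -1.54. Genes of calcium entry and store sensing had 0 of 9 with separate bounds and 2 more below 1 FPKM on average; by the 2-fold count 0 were apart as deposited, and 3 were higher when set against the median cardiomyocyte marker. Itpr1, an intracellular calcium release channel and the most abundant of them by the mean of both groups, though below Orai1 and Orai3 in the control, stood at 7.65 FPKM (2.49 to 12.8) in control cells against 16.05 FPKM (6.37 to 25.7) in Rbfox2 OE.

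**Figure D4:**
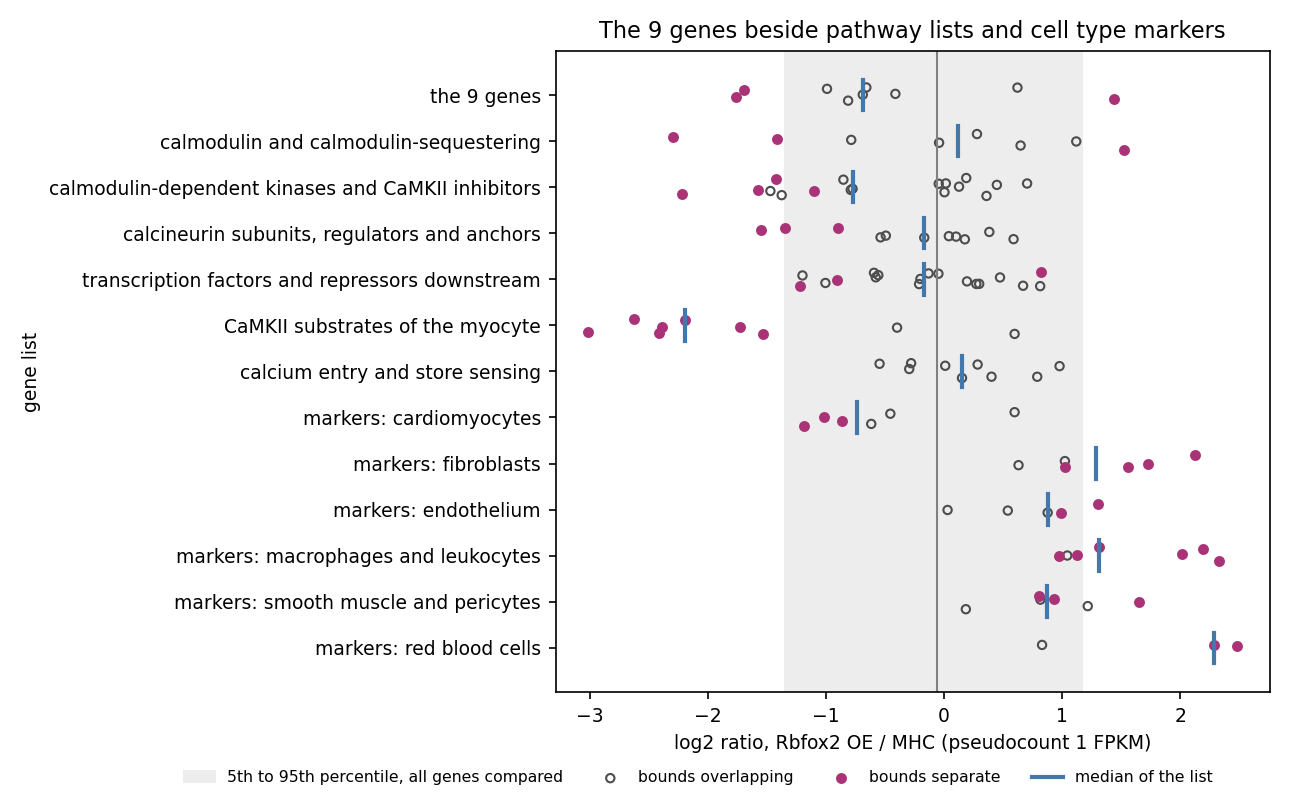
Log2 ratio of Rbfox2 OE over MHC (pseudocount 1 FPKM) for the 9 genes, 6 pathway lists and 6 lists of cell type markers; each point is a gene that has an estimate in both groups and averages 1 FPKM or more, filled where the bounds are separate, blue bars are list medians and the grey band covers the 5th to 95th percentile of all genes compared. The 9 genes have a median of -0.69 and run from -1.76 to 1.44. The cardiomyocyte markers have a median of -0.74 and run from -1.19 to 0.60, and the medians of the other marker lists lie to the right.

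Markers of the cell types in the preparation moved with the groups as well. The cardiomyocyte markers with an estimate in both groups, 6 of 8, had a median log2 ratio of -0.74, with 3 lower by separate bounds (Tnni3, Actc1 and Actn2) and Ttn alone above 0, at 0.60. The markers of other cells were higher, with medians of 1.31 for macrophages and leukocytes (6 of 7 with separate bounds), 1.29 for fibroblasts (4 of 6), 0.88 for endothelium (2 of 5), 0.87 for smooth muscle and pericytes (3 of 6) and 2.28 for red blood cells (2 of 3). The summed macrophage and leukocyte markers came to 81.0 FPKM in control cells against 289 FPKM in Rbfox2 OE, and the summed fibroblast markers to 202 and 466 FPKM. In such bulk values fewer cells of a type and less RNA per cell cannot be told apart. The part of the cell makeup in the values of the 9 genes was not tested.

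Set against the median cardiomyocyte marker, a scaling chosen after seeing the data that raises all Rbfox2 OE values by 0.74 on the log2 scale, Camk2d, Ppp3ca and Calm3 changed sign, to 0.07, 0.02 and 0.32. On that scale Camk2b remained lower with separate bounds, at -1.29, and Camk2a stood at -1.01 with bounds that overlapped. Rcan1 stood at 2.18 and Calm2 at 1.36, both with separate bounds. Rescaling without mitochondrial and top genes, which shifts the median gene from -0.06 to 0.07, changed the sign of none of the 9, and Camk2a, Camk2b and Rcan1 stood at -1.56, -1.67 and 1.59, each with separate bounds.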

How the data were processed

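Per the submitters' processing notes, bcl2fastq 2.17.1.14, Trimmomatic, STAR 2.4.2a, Picard 1.119, HTSeq, DESeq2 and Cuffdiff 2.2.1 were used, with GRCm38 (mm10) named as the build; their order is not given in the sources used here. Libraries were stranded TruSeq mRNA libraries, per the labels' protocols. The deposited table, laid out as a Cuffdiff tracking file per the file headers, holds FPKM and its bounds on the same scale, 1 of each per gene and group, and 0 columns of single libraries. The annotation, normalization mode and use of strand are not given in the sources used here.

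The log2 of the ratio between Rbfox2 OE and MHC was computed from the deposited levels with a pseudocount of 1 FPKM (Python 3.11.15, numpy 2.4.6, pandas 2.3.3). Where several rows carry 1 name (110 names) their values were added, and genes that averaged 1 FPKM or more over the groups were compared. A difference was counted at 2-fold, and in a further count where the bounds of the groups were apart. The number of libraries limits precision, and no test was possible. The calculation was tested on simulated data. Gene positions, transcripts and coding sequences come from GENCODE M21 on GRCm38, in which 99.2% of the identifiers were found, and promoters from RefSeq on GRCm38.p6.

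Overlapping genes could share fragments: Camk2d, Ppp3ca, Ppp3cb, Camk2a and Rcan1 overlap other annotated genes, and those with values in the table stood at no more than 0.311 FPKM in either group. In the authors' rows Usp54 shares the locus of Ppp3cb without an overlap in GENCODE M21, and its level was not examined here. The genes named are the 9, the genes of each pathway list with separate bounds and a mean of at least 1 FPKM, and the most abundant gene of each list; exceptions are stated where they occur. The 9 genes, lists and markers were chosen with earlier results of these data known. Some items are not reported here.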

Additional observations from a re-analysis of the deposited data

How the results depend on the processing

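No paired analysis was possible because each group has a single pooled level per gene, and for the same reason no fit without each library in turn was run. How far the libraries of a group differ, and their depth, therefore limit every value. Of the 9 genes, 3 were at least 2-fold apart as deposited, 4 with a pseudocount of 0.1 FPKM, 2 with a pseudocount of 5 FPKM, 8 at a fold threshold of 1.5 and 0 at a fold threshold of 4. Each gene's log2 ratio was computed under 5 alternatives, 45 values in all. Of these, 42 kept their sign and 3 did not, all 3 when centred on the median cardiomyocyte marker. All 45 lay within the range of the gene's own bounds. The scalings shift values by 0.06, 0.15 and 0.74, less than those bounds span, so for them this could not have come out otherwise. The difference in the Camk2d share of CaMKII, 13.8 percentage points, ranged from -29.0 to 51.0 when the bounds of Camk2d and of the other genes were set against each other. Over all genes compared, 1987 were 2-fold apart, 863 with a pseudocount of 5 FPKM, 4520 at a threshold of 1.5 and 290 at a threshold of 4. Of the 2-fold genes 59.0% were lower as deposited, 54.1% when centred on the median gene, 46.5% when rescaled without mitochondrial genes and the 10 most abundant genes, and 9.96% (339 lower, 3065 higher) when centred on the median cardiomyocyte marker, which moves the median gene from -0.06 to 0.58.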

Other observations

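Camk2a lies on chromosome 18 among genes that differed in both directions. By separate bounds, 6.67% of all genes compared were higher in Rbfox2 OE and 9.33% were lower. Of the 22 other protein-coding genes within 1 Mb of Camk2a averaging 1 FPKM or more, 3 were higher by that count and 2 lower. These 22 genes are too few for the counts to be read as standing above the background. The higher ones were Cd74, at 38.1 FPKM in control cells against 128 FPKM in Rbfox2 OE, and the cell type markers Csf1r and Pdgfrb. The lower ones were F830016B08Rik, at 57.9 and 1.07 FPKM, and Gm4841, at 12.7 and 0.2995 FPKM. Gm4841 reached a mean of 1 FPKM only through the control. This neighbourhood was chosen after the values were seen.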
